A study of Mus musculus with 12 samples.

Results

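Tnfsf11, Tnfrsf11b, Tnfrsf11a, Csf1, Il6, Il11, Lif and Il6ra, 8 genes through which bone and stromal cells direct the formation of bone-resorbing osteoclasts, were followed in mouse bone marrow after irradiation and treatment with parathyroid hormone (PTH). They were chosen by symbol, and each of the 8 was found on 1 array row among 19938 genes with a single symbol. RNA came from the whole marrow flushed out of the long bones of B6 mice, so transcripts of blood-forming, stromal, fat and remaining bone cells were measured together. In such bulk RNA, fewer cells of a type and less RNA per cell cannot be told apart.

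The 12 arrays formed 4 groups of 3. The nonirradiated vehicle group received vehicle from day 11 to day 15 of life and the nonirradiated PTH group received PTH over the same 5 days. Mice of the irradiated vehicle and irradiated PTH groups had a sub-lethal irradiation on day 10, with 310 cGy in each of 2 fractions, and then the same treatments. Marrow of all 4 groups was taken at 16 days of age, from young and still growing mice of 1 strain. No mutant allele is named for any group, and the dose and form of PTH are not given in the sources used here. No label ties an array to 1 mouse or to a pool, so the p-values describe the spread between arrays, part of which may be technical.

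PTH is a peptide hormone that acts through its receptor, Pth1r, on osteoblasts, osteocytes and stromal cells, mainly by raising cyclic AMP. Those cells make RANKL (Tnfsf11), which binds RANK (Tnfrsf11a) on osteoclast precursors and starts their differentiation, while the soluble decoy receptor osteoprotegerin (Tnfrsf11b) captures RANKL. M-CSF (Csf1) keeps the precursors alive and dividing. IL-6, IL-11 and LIF are related cytokines that signal through the shared chain gp130 (Il6st) to JAK kinases and STAT3, and IL-6 needs its own receptor chain (Il6ra) to do so. PTH is known to induce both RANKL and IL-6 in bone cells.

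The promoters of the genes for RANKL and IL-6 are shown because these are the members whose levels were farthest apart between irradiated and nonirradiated arrays relative to their error. Each window runs from 250 bases before to 50 bases after the RefSeq start in build GRCm38.p6, and 7 of the 8 genes had a window in that table. Il6 lies at chr5:30012864-30013163 on the plus strand and Tnfsf11 at chr14:78307994-78308293 on the minus strand. Both are printed 5′ to 3′ along the gene, and capitals mark letters that match one of the motifs named in the next paragraph.
Il6: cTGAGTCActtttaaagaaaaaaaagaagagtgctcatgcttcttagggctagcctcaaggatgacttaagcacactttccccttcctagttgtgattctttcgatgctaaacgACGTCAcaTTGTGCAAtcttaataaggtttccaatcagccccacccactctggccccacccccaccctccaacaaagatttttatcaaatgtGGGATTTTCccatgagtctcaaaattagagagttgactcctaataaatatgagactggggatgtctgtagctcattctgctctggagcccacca
Tnfsf11: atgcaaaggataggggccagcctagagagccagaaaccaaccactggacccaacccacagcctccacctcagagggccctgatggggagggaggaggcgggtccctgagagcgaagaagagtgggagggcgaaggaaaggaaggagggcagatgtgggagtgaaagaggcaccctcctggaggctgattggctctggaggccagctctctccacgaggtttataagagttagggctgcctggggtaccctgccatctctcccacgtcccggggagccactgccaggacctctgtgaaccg

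The motifs searched on both strands were the cAMP response element TGACGTCA, its half-site TGACGT, the NF-kappaB motif GGGANTTNC, the AP-1 motif TGANTCA, the C/EBP motif TTGCNNAA and the STAT motif TTCNNNGAA. They belong to factors that carry PTH, inflammatory and cytokine signals. Of 32851 windows of this length in the table, 1.79%, 7.51%, 4.26%, 7.81%, 10.8% and 8.30% held them, in that order. The half-site lies within the full element. The Il6 window held 4 of these 6 motifs: AP-1 at 249, the half-site at 136, C/EBP at 128 and NF-kappaB at 44 bases before the start. In the Tnfsf11 window 0 of the 6 matched, which says only that these letters are not in these 300 bases.

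The level of each gene bears on how its changes can be read, since the table has no detection call. Olfactory receptor genes, which marrow hardly uses, served as a reference, with a median log2 level of 4.46 and a 95th percentile of 5.98 over 1027 genes. Il6ra and Tnfsf11 had the highest means over the 12 arrays, at log2 levels of 8.07 and 7.73, followed by Csf1 at 6.77 and Tnfrsf11a at 6.67, all above that percentile. Array rows of different genes respond differently, so this order says nothing about transcript numbers. Tnfrsf11b at 5.63, Lif at 5.52 and Il11 at 5.24 were under the 95th percentile, above 89.3%, 87.4% and 80.5% of the olfactory receptor genes. Il6 was dimmest, with a mean of 4.32 that exceeded 43.7% of them. Differences of these 4 dim genes were measured in a range where a change of the transcript can be compressed on the array.

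**Figure D1:**
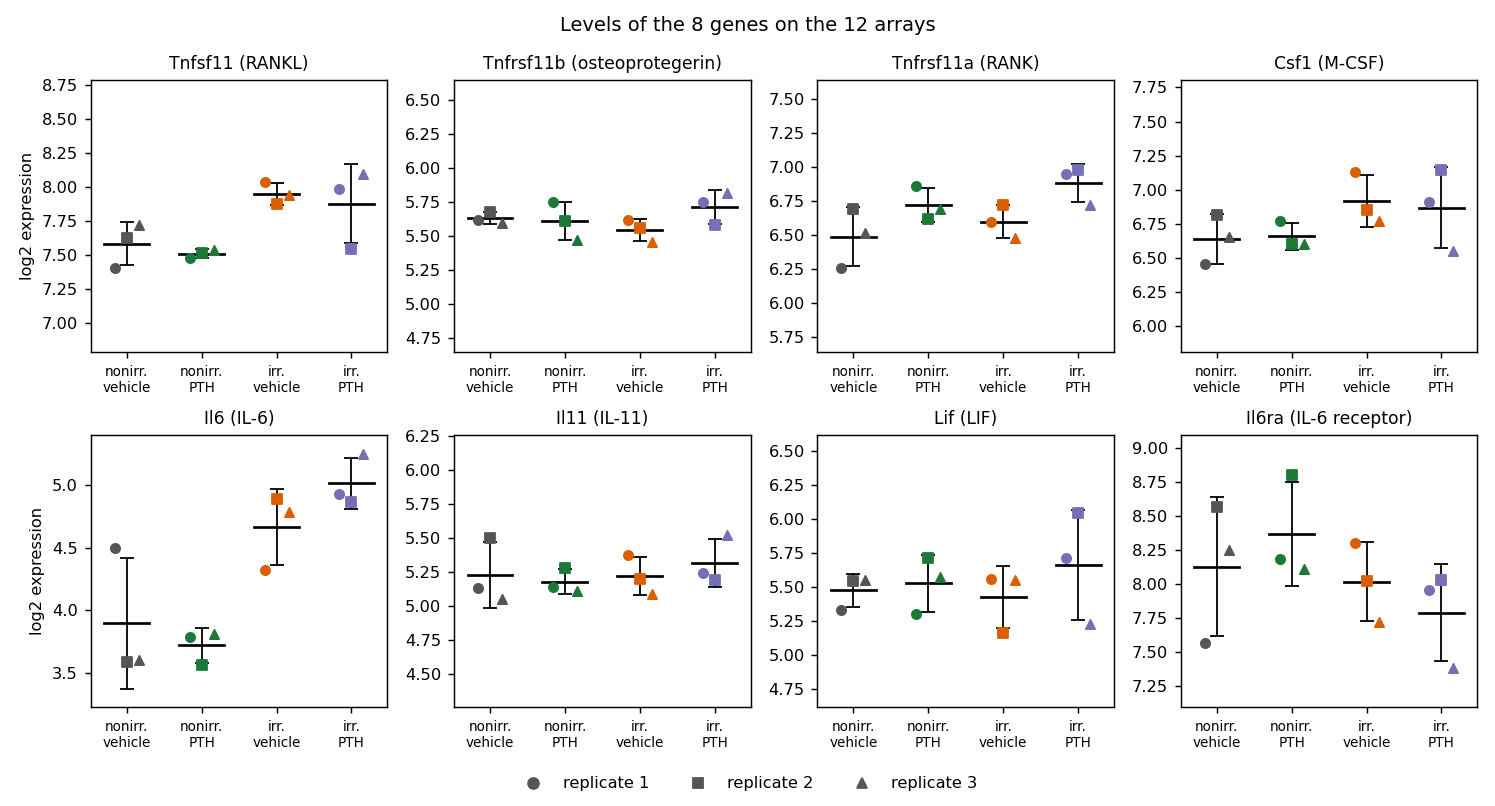
Log2 expression (vertical axes) of the 8 genes in each of 4 groups (horizontal axes). Points are single arrays with the replicate number as symbol, horizontal lines are group means and bars are the SD (n = 3); Il6 is at 4.32 or above on all 6 irradiated arrays, and 5 of the 6 nonirradiated arrays lie at 3.81 or below.

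Il6, the gene for the cytokine IL-6, was the one member that passed a test: it was higher after irradiation. Its log2 levels were 4.50, 3.59 and 3.60 on nonirradiated vehicle arrays and 3.79, 3.56 and 3.81 on nonirradiated PTH arrays. After irradiation they were 4.32, 4.89 and 4.79 with vehicle and 4.93, 4.87 and 5.25 with PTH. In PTH mice the groups did not overlap, while in vehicle mice replicate 1 of the nonirradiated group lay above the lowest irradiated array. With PTH, Il6 rose by 1.29 on the log2 scale (SE 0.237, 95% interval 0.78 to 1.81, limma adjusted p = 0.0131). With vehicle its log2 difference was 0.77 (SE 0.237, 95% interval 0.25 to 1.29, limma adjusted p = 0.143) and did not pass. Averaged over both treatments it rose by 1.03 (SE 0.168, limma adjusted p = 0.00267). Since the group means were under the 95th percentile of the olfactory receptor genes in all 4 groups, these are differences in the signal of the row, and no fold of the transcript is given. In that averaged comparison 1 of the 8 members passed, where 6.10% of all genes did.

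The irradiation difference of Il6 was not shown to depend on the treatment. Its interaction, the log2 difference with PTH minus that with vehicle, was 0.52 (95% interval -0.21 to 1.25, limma adjusted p = 0.732). By group mean, Il6 ran from nonirradiated PTH at 3.72 ± 0.140 and nonirradiated vehicle at 3.90 ± 0.524 to irradiated vehicle at 4.67 ± 0.300 and irradiated PTH at 5.01 ± 0.205 (SD, n = 3). Neither the lower pair nor the upper pair in this order differed beyond its spread. Set against the olfactory receptor genes of the same arrays, the Il6 mean exceeded 21.1% and 22.3% of them in the nonirradiated PTH and vehicle groups. It exceeded 61.6% and 71.5% in the irradiated vehicle and PTH groups.

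The call for Il6 in PTH mice rested on few arrays. It ended without nonirradiated PTH replicate 1 (adjusted p = 0.0509) or replicate 2 (adjusted p = 0.0664), and with the sex of the mice as a term (log2 difference 1.08, adjusted p = 0.141). In vehicle mice, leaving out nonirradiated vehicle replicate 1, the array with the high value, gave a difference of 1.07 that passed (adjusted p = 0.0145), as did array weights (1.03, adjusted p = 0.00541). The averaged rise passed in all 12 fits that left out 1 array, with differences from 0.95 to 1.18.

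Sex was read from Xist and the Y-linked gene Kdm5d, and differed between groups: 0 of 3 nonirradiated vehicle arrays, 3 of 3 nonirradiated PTH arrays and 1 of 3 in each irradiated group had the female pattern. Within arrays of the male pattern, Il6 lay from 3.59 to 4.50 on 3 nonirradiated arrays and from 4.79 to 5.25 on 4 irradiated arrays. Within the female pattern it lay from 3.56 to 3.81 on 3 nonirradiated arrays and at 4.32 and 4.93 on 2 irradiated arrays. Irradiated arrays were thus higher without overlap within each sex, and these within-sex values are given with no test. Between the nonirradiated groups, sex and PTH cannot be told apart. The interquartile range of all values was 2.63 on the third nonirradiated vehicle array and 2.66 on the third irradiated PTH array, against 2.999 to 3.14 on the other 10. Without both narrow-range arrays, Il6 rose by 1.18 in PTH mice (adjusted p = 0.0396).

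Tnfsf11, the gene for RANKL, had higher levels in both irradiated groups but passed in no comparison. Its log2 levels were 7.41, 7.63 and 7.72 without irradiation and 8.04, 7.88 and 7.94 with it in vehicle mice. In PTH mice they were 7.48, 7.52 and 7.54 without irradiation and 7.99, 7.55 and 8.10 with it. The groups did not overlap in either treatment, although irradiated PTH replicate 2, at 7.55, was only just above the highest nonirradiated PTH array. The log2 difference was 0.37 in each treatment (SE 0.148), with 95% intervals of 0.05 to 0.69 in both, a 1.29-fold difference. Its adjusted p by limma was 0.295 with vehicle and 0.294 with PTH, and 0.0627 averaged over both (difference 0.37, SE 0.105). Without irradiated PTH replicate 2 the averaged difference was 0.45 and passed (adjusted p = 0.0118). Within the female pattern Tnfsf11 lay from 7.48 to 7.54 on nonirradiated and at 7.99 and 8.04 on irradiated arrays, and within the male pattern from 7.41 to 7.72 and from 7.55 to 8.10.

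PTH did not shift Tnfsf11 detectably in either irradiation state. The log2 difference of PTH against vehicle was -0.07 in nonirradiated mice (95% interval -0.39 to 0.25) and -0.07 in irradiated mice (95% interval -0.39 to 0.25). These intervals do not show equal levels, but a rise above 0.25 lies outside both in this fit. In nonirradiated mice sex and PTH cannot be told apart, so the interval there does not bound an effect of PTH alone. By group mean, Tnfsf11 ran from nonirradiated PTH (7.51) and nonirradiated vehicle (7.59) to irradiated PTH (7.88) and irradiated vehicle (7.95), with neighbours within each pair inside their spread.

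Tnfrsf11b, the gene for osteoprotegerin, was the steadiest of the 8 genes, spanning 0.36 on the log2 scale over the 12 arrays. Its log2 levels were 5.62, 5.68 and 5.60 with vehicle and 5.75, 5.61 and 5.47 with PTH in nonirradiated mice. In irradiated mice they were 5.62, 5.56 and 5.46 with vehicle and 5.75, 5.58 and 5.82 with PTH. All 4 groups overlapped. The irradiation difference was -0.09 with vehicle (95% interval -0.34 to 0.16) and 0.11 with PTH (95% interval -0.14 to 0.36), and that of PTH in irradiated mice was 0.17 (95% interval -0.08 to 0.42). As its row lay among the brighter olfactory receptor genes, a small span here is a statement about this row and not evidence of a constant transcript.

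The ratio of RANKL to osteoprotegerin, the usual summary of the balance between the ligand and its decoy, was taken as Tnfsf11 minus Tnfrsf11b on each array and set relative to the nonirradiated vehicle mean. Only its change between groups can be read, since the rows respond differently. The Tnfrsf11b row lay under the 95th percentile of the olfactory receptor genes in every group, so a change of the decoy may be understated and the ratio is one of row signals. It was 0.00 ± 0.162 in nonirradiated vehicle, -0.05 ± 0.166 in nonirradiated PTH, 0.45 ± 0.0862 in irradiated vehicle and 0.21 ± 0.171 in irradiated PTH mice (SD, n = 3, log2). Irradiated vehicle arrays lay from 0.36 to 0.53, above all 6 nonirradiated arrays, whose highest value was 0.16. Irradiated PTH arrays lay from 0.02 to 0.33, below the irradiated vehicle arrays without overlap and overlapping both nonirradiated groups. That separation came from a Tnfrsf11b difference of 0.17 and a Tnfsf11 difference of -0.07, neither of which passed. No p is given for this value made from members. It moved with scaling: with quantile normalization repeated, the change with irradiation in vehicle mice was 0.27 in place of 0.45, and that with PTH in irradiated mice -0.07 in place of -0.24.

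**Figure D2:**
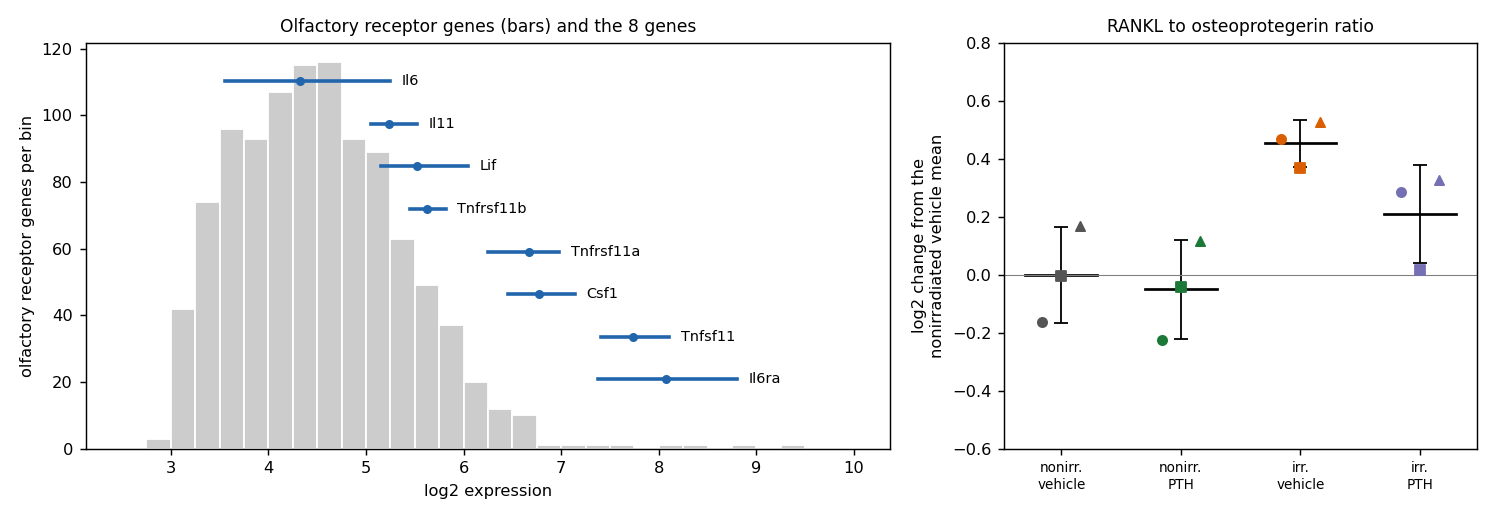
Left, log2 expression (horizontal axis) of 1027 olfactory receptor genes as bars (genes per bin, vertical axis), with each of the 8 genes as a blue point at its mean over 12 arrays and a line from its lowest to its highest array, stacked at arbitrary heights. Right, log2 change of the RANKL to osteoprotegerin ratio on each array from the nonirradiated vehicle mean, with group means and SD (n = 3; replicate symbols as in the plot of single genes); Il6 lies inside the bars and irradiated vehicle arrays have the highest ratios.

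Tnfrsf11a and Csf1, which encode the receptor RANK and the precursor growth factor M-CSF, did not pass in any comparison. Tnfrsf11a log2 levels were 6.26, 6.69 and 6.52 in nonirradiated vehicle, 6.86, 6.62 and 6.69 in nonirradiated PTH, 6.60, 6.72 and 6.48 in irradiated vehicle and 6.95, 6.98 and 6.72 in irradiated PTH mice. The irradiated PTH group was highest, and its lowest array equalled the highest irradiated vehicle array at 2 decimals. PTH against vehicle gave a log2 difference of 0.24 in nonirradiated mice (95% interval -0.07 to 0.54) and 0.28 in irradiated mice (95% interval -0.02 to 0.59, limma adjusted p = 0.844). Irradiation gave 0.11 with vehicle and 0.16 with PTH.

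Csf1 log2 levels were 6.45, 6.81 and 6.65 in nonirradiated vehicle, 6.77, 6.60 and 6.60 in nonirradiated PTH, 7.13, 6.85 and 6.77 in irradiated vehicle and 6.91, 7.14 and 6.55 in irradiated PTH mice. Irradiated arrays spread more widely, and both irradiated groups overlapped their nonirradiated counterparts. The irradiation difference was 0.28 with vehicle (95% interval -0.08 to 0.64), 0.21 with PTH (95% interval -0.15 to 0.57) and 0.25 averaged (SE 0.117, limma adjusted p = 0.307).

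Il6ra, the receptor chain that IL-6 binds first, is made by many white blood cells and was the brightest row of the 8. Its log2 levels were 7.56, 8.56 and 8.25 in nonirradiated vehicle and 8.18, 8.80 and 8.11 in nonirradiated PTH mice. They were 8.30, 8.02 and 7.72 in irradiated vehicle and 7.95, 8.03 and 7.38 in irradiated PTH mice. All 3 irradiated PTH arrays lay below the nonirradiated PTH arrays, while the vehicle groups overlapped. The irradiation difference was -0.58 with PTH (95% interval -1.18 to 0.03, limma adjusted p = 0.401), -0.11 with vehicle (95% interval -0.72 to 0.50) and -0.34 averaged, and none passed. The interaction was -0.47 (95% interval -1.32 to 0.39). Over the 12 arrays Il6ra and Il6 had Pearson r = -0.783, a description over arrays that share their groups and processing, and the lowest r among pairs of members. Il6ra also went with the first principal component of all genes, the axis along which the arrays differ most. That axis was lowest on irradiated PTH replicate 3 (-66.3), where Il6ra was 7.38. It was highest on nonirradiated PTH replicate 2 (32.4), where Il6ra was 8.80. Its part in the Il6ra differences and in this r was not tested.

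Il11 and Lif, the 2 further gp130 cytokines of the set, passed in no comparison. Il11 log2 levels lay between 5.05 and 5.50 in nonirradiated vehicle, 5.11 and 5.28 in nonirradiated PTH, 5.09 and 5.37 in irradiated vehicle, and 5.19 and 5.52 in irradiated PTH mice. Lif lay between 5.33 and 5.55, 5.30 and 5.71, 5.16 and 5.56, and 5.23 and 6.04 in the same order. All groups of both genes overlapped. The widest group was Lif with PTH after irradiation, with arrays at 5.71, 6.04 and 5.23, and its difference from vehicle was 0.24 (95% interval -0.19 to 0.68).

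**Figure D3:**
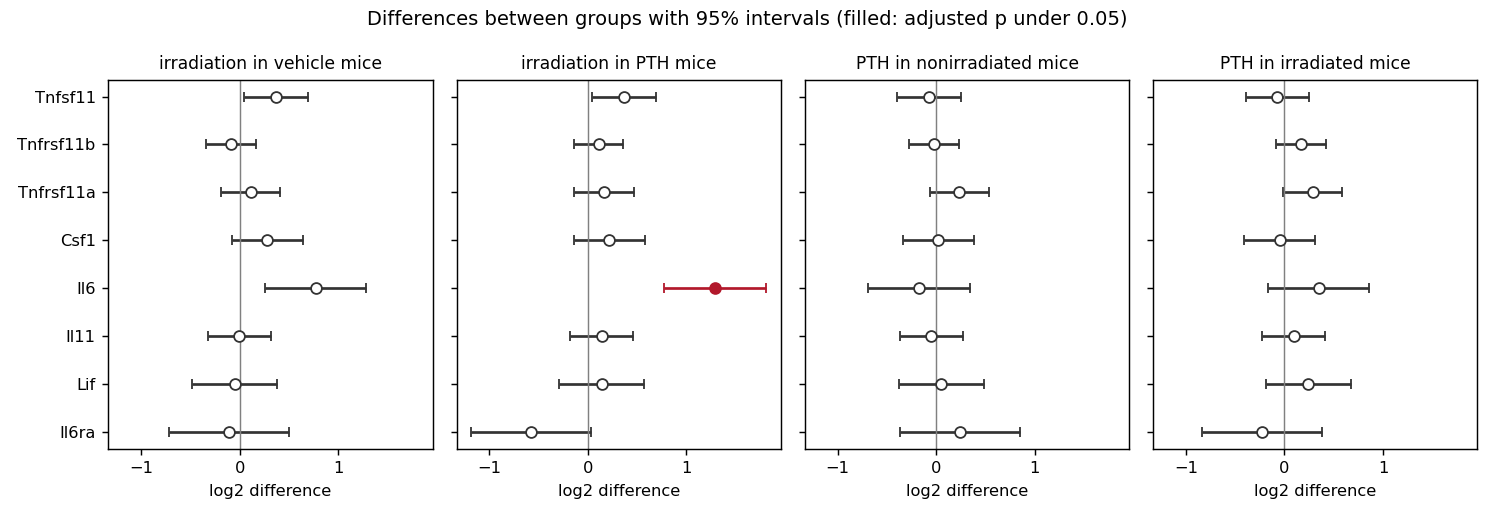
Log2 differences between groups (horizontal axes) of the 8 genes (vertical axis) in 4 comparisons, with 95% intervals from the fit of all 12 arrays. A filled red point marks a Benjamini-Hochberg adjusted p under 0.05 over 19938 genes, which Il6 reached with irradiation in PTH mice.

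The counts over the 8 genes can be read against those over all 19938. With irradiation in vehicle mice 0 of 8 passed, where 2.22% of all genes did, and 2 (Il6 and Tnfsf11) had an unadjusted p under 0.05, where 13.3% of all genes did. In PTH mice 1 of 8 passed against 2.43% of all genes, and the same 2 genes had an unadjusted p under 0.05 against 13.4%. Groups without overlap were found for 1 member (Tnfsf11) in vehicle mice, where 18.8% of all genes had them. In PTH mice they were found for 3 members (Il6, Tnfsf11 and Il6ra), where 19.8% of all genes had them. The median log2 difference of the members was 0.05 with vehicle and 0.15 with PTH, beside -0.03 and 0.01 over all genes.

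PTH gave no call in either state in the fit of all 12 arrays, for the members or for any gene. When the nonirradiated groups alone were fitted 4 genes passed, 0 of them members. In nonirradiated mice 0 of 8 members passed by limma, where 0% of all genes did, and 0 members had an unadjusted p under 0.05, where 1.79% of all genes did. In irradiated mice the corresponding counts were 0 of 8 beside 0% and 0 of 8 beside 3.81%. Groups did not overlap for 0 members in nonirradiated mice, where 6.84% of all genes had such groups. In irradiated mice they did not overlap for 1 member, Tnfrsf11a, where 9.73% of all genes had them. The differences of the members ran from -0.18 (Il6) to 0.24 in nonirradiated and from -0.23 (Il6ra) to 0.35 (Il6) in irradiated mice. For Il6 the 95% interval was -0.69 to 0.34 in nonirradiated and -0.17 to 0.86 in irradiated mice. Averaged over both states 0 of 8 members and 0% of all genes passed, and 1 member, Tnfrsf11a, had an unadjusted p under 0.05, with a difference of 0.26, where 1.26% of all genes did. With a sex term 1 gene, no member, passed in that average. For the interaction 0 of 8 members and 0% of all genes passed, and 0 members had an unadjusted p under 0.05, where 5.49% of all genes did.

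Among the further ligands and receptors of the IL-6 family, the oncostatin M receptor rose after irradiation in both treatments. It was the 1 gene of 10 measured that passed in each, beside 2.22% and 2.43% of all genes, and in the average 2 of the 10 rose, beside 6.10%. Of the 10, 0 fell. Osmr, the chain with which gp130 forms the oncostatin M receptor on stromal and bone cells, had log2 levels of 7.96, 7.42 and 7.63 in nonirradiated vehicle and 7.86, 7.82 and 7.81 in nonirradiated PTH mice. After irradiation they were 9.26, 9.15 and 8.80 with vehicle and 9.14, 8.81 and 8.65 with PTH. Every irradiated array was higher than every nonirradiated one. Osmr rose by 1.40 with vehicle (SE 0.174, limma adjusted p = 0.00135) and 1.04 with PTH (SE 0.174, limma adjusted p = 0.0083), and kept both calls in all 12 fits that left out 1 array and with sex as a term.

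Osm, the gene for the ligand oncostatin M, a product of myeloid cells, rose in the average of both treatments by 0.59 (SE 0.134, limma adjusted p = 0.0200). That call held in 8 of 12 fits without 1 array and ended without both narrow-range arrays (adjusted p = 0.0685). In the single treatments its differences of 0.73 and 0.46 did not pass. The nonirradiated means of Osm, 6.06 with vehicle and 5.99 with PTH, lay only just above the olfactory 95th percentile of 5.98. Il6st, the shared chain gp130, had differences of 0.36 with vehicle and 0.31 with PTH, and Lifr, the LIF receptor, 0.33 and 0.25, none of which passed. Clcf1, a further ligand of the family, had -0.35 and -0.53 and did not pass either. The median log2 difference of the 10 genes was 0.18 with vehicle and 0.12 with PTH, beside -0.03 and 0.01 over all genes.

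The list of JAK kinases, STAT3, their regulators and target genes of cytokine signalling held more calls. Of 21 measured genes of that list, 7 rose in vehicle mice, 3 in PTH mice and 8 in the average, and 0 fell. Over all genes 2.22%, 2.43% and 6.10% passed in these comparisons, in either direction. The medians of the list were 0.29, 0.11 and 0.21, beside -0.03, 0.01 and -0.01 over all genes. The list was drawn up with earlier results of these data known, Serpina3n among them, so its direction is not independent evidence. Socs3, the feedback inhibitor that STAT3 induces to quench gp130 signalling, had log2 levels of 5.83, 6.30 and 6.10 in nonirradiated and 7.09, 6.90 and 6.76 in irradiated vehicle mice. With PTH they were 5.89, 5.86 and 5.72, and 7.07, 6.75 and 6.38. Irradiated arrays were higher without overlap in each treatment. Socs3 rose by 0.84 with vehicle (SE 0.180, limma adjusted p = 0.0323) and 0.91 with PTH (SE 0.180, limma adjusted p = 0.0191), a call that held in 4 and 8 of 12 fits without 1 array and in all 12 for the average. With a sex term the call in vehicle mice ended (adjusted p = 0.0607). The Socs3 mean in nonirradiated PTH mice, 5.82, was under the olfactory 95th percentile of 5.98, where a change of the transcript can be compressed.

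Cish, a related feedback inhibitor of STAT5-activating cytokine receptors, rose by 2.04 with vehicle and 1.60 with PTH (limma adjusted p = 0.00426 and 0.0158), calls that held in 12 and 9 of 12 fits without 1 array. Serpina3n, an acute-phase protease inhibitor and the list's largest difference, rose by 4.28 and 3.51 (limma adjusted p = 3.61e-06 and 3.54e-05). In vehicle mice Steap4, a metalloreductase induced by inflammation (1.29), Hp, haptoglobin (1.88), Il1rn, the antagonist of the IL-1 receptor (0.96), and Lrg1, an acute-phase glycoprotein (1.53), also rose. The Lrg1 call held in 8 of 12 fits without 1 array and ended with a sex term (adjusted p = 0.0625) and without both narrow-range arrays (adjusted p = 0.0558), and that of Il1rn held in 9 of 12. With PTH these 4 did not pass, with log2 differences of 0.47, 0.60, 0.38 and 0.80 in the same order, and no difference between treatments passed. Pim1, a kinase gene that cytokines induce, rose by 1.35 in the average and had 1.61 with vehicle (limma adjusted p = 0.0509) and 1.09 with PTH, which did not pass. The kinases and the factor themselves did not pass: Jak1 had log2 differences of -0.14 and -0.29, Jak2 -0.46 and 0.06, and Stat3 0.08 and -0.27. PTH called 0 of the 21 genes in either irradiation state.

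**Figure D4:**
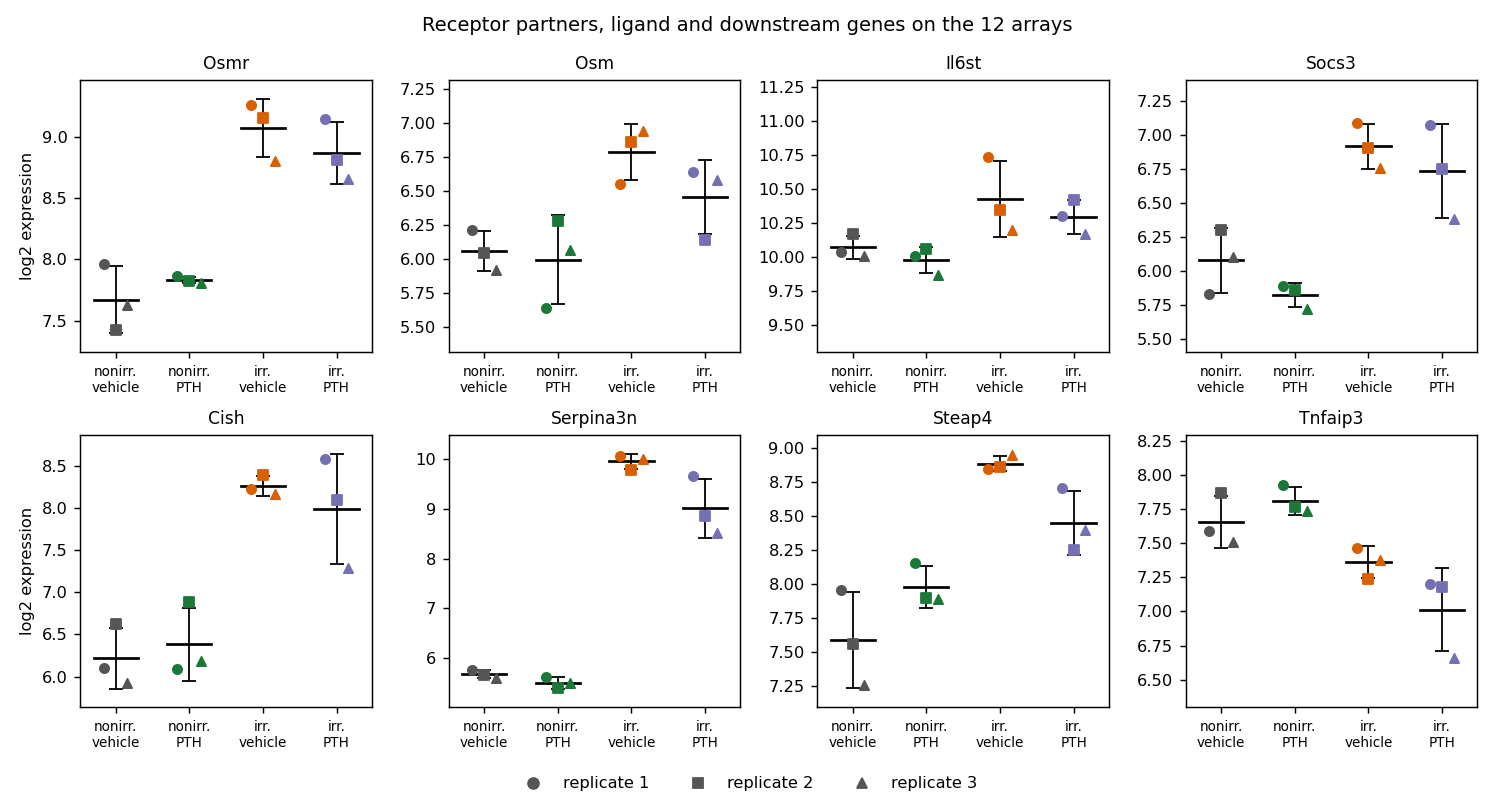
Log2 expression (vertical axes) of 8 genes of the pathway lists in each of 4 groups (horizontal axes), with single arrays as points, group means as lines and SD as bars (n = 3). Osmr, Socs3, Cish and Serpina3n are higher on every irradiated array than on any nonirradiated array, and Tnfaip3 is lower.

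Among the signalling genes downstream of RANK no rise passed. Of 24 measured genes, 0 passed in vehicle mice, beside 2.22% of all genes. In PTH mice 1 fell and 0 rose, beside 2.43% of all genes that passed in either direction. The median in PTH mice was -0.27, beside 0.01 over all genes. That gene was Tnfaip3, the A20 enzyme that restrains NF-kappaB signalling, whose log2 levels were 7.93, 7.77 and 7.74 without and 7.20, 7.18 and 6.66 with irradiation. It fell by 0.80 (SE 0.159, limma adjusted p = 0.0212), which held in 9 of 12 fits without 1 array, and the call ended with a sex term (adjusted p = 0.218). With vehicle its difference of -0.30 did not pass. Averaged over both treatments Tnfaip3 fell by 0.55 (limma adjusted p = 0.0122). The averaged call held in all 12 fits without 1 array and with a sex term (adjusted p = 0.0224). Traf6, the adaptor of RANK (-0.68), and Nfatc1, the transcription factor that commits precursors to the osteoclast fate (-1.03), had lower values in irradiated PTH mice and did not pass. Of 13 osteoclast genes 0 passed with irradiation in either treatment. Acp5 and Ctsk, the phosphatase and the protease of osteoclasts, had irradiation differences of -0.21 and -0.36 with vehicle and -0.41 and -0.39 with PTH. The list was mixed, with 6 of the 13 genes positive in each treatment. Its median was -0.03 with vehicle and -0.13 with PTH, beside -0.03 and 0.01 over all genes. For PTH against vehicle, 12 of the 13 osteoclast genes had positive differences in nonirradiated mice (median 0.38). In irradiated mice 10 had (median 0.28). The median over all genes was 0.01 in both, and 0 of the 13 passed in either state. With dim genes left out that median was 0.07 in nonirradiated and -0.07 in irradiated mice. In nonirradiated mice 11 of 11 neutrophil and 14 of 15 osteoblast and stromal markers were also positive. The lean there was thus not particular to osteoclast genes. Of adipocyte and skeletal muscle markers 3 of 11 and 1 of 8 were positive there. After irradiation 3 of 11 neutrophil and 6 of 15 osteoblast and stromal markers were positive. In nonirradiated mice sex and PTH cannot be told apart.

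The next 2 lists stand beside 2.22% of all genes that passed with irradiation in vehicle mice and 2.43% in PTH mice, in either direction. Among 9 genes of the M-CSF receptor axis and related colony-stimulating factors, 1 fell in PTH mice and 0 passed in vehicle mice. It was Csf3r, the receptor for G-CSF on neutrophils and their precursors, which fell by 1.72 (SE 0.250, limma adjusted p = 0.00325). With vehicle its difference of -0.78 did not pass. Averaged over both treatments Csf3r fell by 1.25 (limma adjusted p = 0.00112). The averaged call held in all 12 fits without 1 array and with a sex term (adjusted p = 0.00248). Csf1r, the receptor that M-CSF binds, had -0.13 and -0.64 and did not pass. Among 16 measured genes of PTH action and of other inducers of RANKL and IL-6, 1 fell in each treatment and 0 rose. It was Il1b, the cytokine interleukin-1 beta, which fell by 2.74 with vehicle and fell by 2.34 with PTH. Pth1r had differences of 0.23 and 0.00 and did not pass.

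Marker genes of B-lineage cells and adipocytes, and a few of T and NK cells, also differed with irradiation, while other lists gave few or no calls. The part of any of these markers in the results above was not tested. Their counts can be read beside 2.22% of all genes that passed in vehicle mice and 2.43% in PTH mice, in either direction. Of 11 measured B-lineage markers, 9 fell in vehicle and 10 in PTH mice, and their mean log2 level went from 9.40 to 9.81 on nonirradiated arrays down to 6.92 to 7.69 on irradiated ones. Of 11 adipocyte markers, 7 and 3 rose, with mean levels of 6.87 to 7.12 on nonirradiated, 8.18 to 8.36 on irradiated vehicle and 7.64 to 7.85 on irradiated PTH arrays. Adipocytes can make IL-6 and RANKL, and B cells osteoprotegerin and RANKL. Osteoblast and stromal markers, the cells on which PTH acts directly, had 0 of 15 calls in either treatment and mean levels of 8.32 to 8.90 over all arrays. Of 10 monocyte and macrophage markers 1, Marco, was higher in each treatment, while the list medians were 0.08 with vehicle and -0.23 with PTH. The Marco call held in 3 of 12 fits without 1 array in vehicle mice and in all 12 in PTH mice. With a sex term it ended in both (limma adjusted p = 0.0680 and 0.0928). Of 11 T and NK cell markers 1 fell in vehicle and 3 in PTH mice, with mean levels of 6.50 to 6.94 on nonirradiated and 6.22 to 6.44 on irradiated arrays. Cd2 fell in both (-1.86 and -2.09), and Cd3e (-0.90) and Cd8a (-0.88) in PTH mice. The calls of Cd3e and Cd8a held in 9 and 6 of 12 fits without 1 array. Both ended with a sex term (limma adjusted p = 0.185 and 0.268). Neutrophil markers, at mean levels of 10.55 to 11.52, and the 6 erythroid markers measured, at 10.46 to 11.30, were bright on all 12 arrays. Of 11 neutrophil markers 0 passed in vehicle mice and 1 fell in PTH mice, Ly6g by a log2 difference of -1.88. The Ly6g call held in 8 of 12 fits without 1 array and ended with a sex term (limma adjusted p = 0.0896). Of the 6 erythroid markers 1, Car1, fell in each treatment (-1.25 and -1.27). Both Car1 calls held in 10 of 12 fits without 1 array, and that in PTH mice ended with a sex term (limma adjusted p = 0.0820). Endothelial markers had 0 of 9 calls in each treatment, and chondrocyte markers 0 of 10 with vehicle and 1 of 10 higher with PTH. That chondrocyte call, of Ucma, held in 4 of 12 fits without 1 array and ended with a sex term (limma adjusted p = 0.287). Skeletal muscle markers, which whole marrow should lack, had mean levels of 6.64 to 8.11 that varied within every group, and 0 of 8 calls.

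Likeness of pattern was described by Pearson r over the 12 arrays among 11138 genes above the olfactory reference. The genes most like Il6 were Nt5c3 (0.984), Ccng1 (0.960), Ifih1 (0.953), Abcg2 (0.949) and Serpinb6b (0.947). Those most like Tnfsf11 were Cdkn2b (0.919), Pcgf3 (0.917), Col4a2 (0.893), Pole3 (0.882) and Sncg (0.881). Tnfrsf11a was nearest to Ocstamp (0.893), a fusion gene of osteoclasts that stands in the osteoclast list, and Csf1 to Fgd5 (0.953). Il6ra was nearest to Hdac7 (0.976), Tnfrsf11b to Krt42 (0.896), Il11 to Akap8l (0.903) and Lif to Sparcl1 (0.764). These values describe the 12 arrays, which share their groups and processing, and were not tested. Among the members, Tnfsf11 and Il6 had r = 0.595.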

How the data were processed

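Expression was measured on 12 whole-transcript arrays of total RNA (100 ng each, biotinylated cDNA, per the labels' protocols). The values the authors deposited are on a log2 scale, as their range shows. The submitters' processing notes name affy, RMA (background correction, quantile normalization and median polish) and limma, without versions or roles. Whether all arrays were normalized together, and the genome build, are not given in the sources used here. Array medians and ranges differ, so residual scaling can shift small differences.

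Of 35556 rows, 21789 had 1 gene symbol, 1621 had several and 12146 were not listed. Rows with 1 symbol gave 19938 genes, the brightest row being kept for 999 genes with several. Symbols were updated through RefSeq (GRCm38.p6) gene identifiers, and 91 rows without a match kept theirs. All 12 arrays were fitted with limma 3.58.1 (R 4.3.3) as 4 group means with 8 residual degrees of freedom and default eBayes. A call is a Benjamini-Hochberg adjusted p under 0.05 over all genes. The fit was tested on simulated data.

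Members and gene lists were chosen with earlier results of these data known. Named genes were the 8 members, up to 4 called genes per pathway list and comparison by smallest p, and genes most like a member. Of the latter, 5 are named for Il6 and for Tnfsf11, and only the nearest for each other member. Il1rn, Lrg1, Pim1, the named cell type markers and the further genes that did not pass fall outside that rule and were chosen after their values were seen.

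Replicate numbers are shared by the groups, and no label says that they pair arrays. Deviations from the group means were correlated between arrays of the same number. The values were 0.144 to 0.570 for 3 pairs between the irradiated groups, and from -0.651 to 0.558 in the other 3 comparisons. Between the irradiated groups, 6 pairs of different numbers had -0.509 to 0.396. These ranges overlap, so pairing there was neither shown nor excluded, and a replicate block was fitted as an alternative. The number of arrays limits the precision: over all genes, the standard error for irradiation in vehicle mice had a median of 0.166. The alternatives were an intensity trend with a robust prior, array weights, quantile normalization repeated, median centring, dim genes left out, the mean of a gene's rows, a replicate block, only the groups compared, a sex term, and leaving out each array or both narrow-range arrays.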

Additional observations from a re-analysis of the deposited data

How the results depend on the processing

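The calls of the members concern Il6 and, once, Tnfsf11. With irradiation in vehicle mice, where 0 members passed, 1 passed with array weights, and 0 to 1 in the 12 fits without 1 array. In PTH mice, where 1 passed, 0 passed with sex as a term and with dim genes left out, which removes Il6 and 3 other members from the test, and 0 to 1 in the 12 fits without 1 array. In the average over treatments, where 1 passed, 0 passed with dim genes left out, and 1 to 2 without 1 array. PTH and the interaction gave 0 calls of members under each of their alternatives. With the replicate block over all 12 arrays Il6 rose by 1.29 in PTH mice (adjusted p = 0.0188), and neither this block nor one within the irradiated groups alone, added after seeing the data, changed a call of a member. With quantile normalization repeated, the change of the RANKL to osteoprotegerin ratio was 0.268 with irradiation in vehicle mice, -0.215 with PTH in nonirradiated and -0.066 with PTH in irradiated mice.

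Of 56 differences of the 8 members, 26 took the other sign under at least 1 of the alternatives, and 0 of these were called. Among differences given above, Tnfsf11 with PTH in irradiated mice became 0.063 with quantile normalization repeated, and ran from -0.182 to 0.094 without 1 array. Il6 with PTH in nonirradiated mice became 0.146 with sex as a term, and ran from -0.33 to 0.13 without 1 array. With irradiation in vehicle mice and 1 array left out, Tnfrsf11a ran from -0.005 to 0.21 and Il6ra from -0.39 to 0.11. The cause was not tested. Over all genes, 442 passed with irradiation in vehicle mice and 1149 with array weights, and 1216 and 2517 in the average. In PTH mice 485 passed, against 1148 with array weights, 232 with only the groups compared and 200 with a sex term. Signal limits Il6, Il11, Lif and Tnfrsf11b most, whose rows lay among those of olfactory receptor genes.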
